A study of Procambarus virginalis and Procambarus fallax with 9 samples.

Results

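The 85 gene models described here were the dominant transcripts of the hepatopancreas of the marbled crayfish, Procambarus virginalis. They were chosen from 21773 gene models by a mean of at least 1000 TPM over the hepatopancreas libraries of 3 animals and a mean below 1000 TPM over the abdominal musculature libraries of the same animals. TPM is the level of a gene's transcripts per fixed total of transcripts in the library, obtained by dividing its fragments by its effective length and rescaling, so it is a share and moves when other genes take more or less. The RNA-seq libraries formed 3 groups of 3: hepatopancreas of P. virginalis animals 2, 6 and 7, the abdominal musculature of these same animals, and that of P. fallax animals 1, 3 and 4. The P. virginalis animals were adults of the Heidelberg laboratory strain, a single parthenogenetic lineage in which all animals are females with the same genotype apart from new mutations. The P. fallax animals were females of the sexually reproducing parent species, from aquarium supply, and no hepatopancreas of P. fallax was analysed here. The labels give no treatment and no age, and every library came from 1 animal and 1 tissue. Since the values in P. virginalis chose the genes, their levels in these 6 libraries are given as a description. The only test from which anything is read is that between the muscle of the 2 species. The libraries of P. fallax had no part in the choice, but the rule capped muscle of P. virginalis and not that of P. fallax. Genes near that cap can therefore be tilted toward lower in P. virginalis.

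The hepatopancreas is the digestive gland of decapod crustaceans. Its epithelial tubules secrete digestive enzymes into the gut, take up nutrients, store lipid and glycogen and detoxify what was eaten. In many decapods it also makes proteins for export to the hemolymph, among them hemocyanin and, in reproducing females, the yolk protein precursor vitellogenin, so its transcript pool follows feeding, molting and reproduction. The abdominal musculature is the fast tail muscle, whose transcript pool is led by contractile proteins. The files name genes by the identifiers of the annotation of draft scaffolds and give no product. The genes are therefore called by identifier or by their rank in mean hepatopancreas TPM, no role is assigned to any of them, and the tissue labels were not checked against marker genes.

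Total expected counts, the fragments assigned to genes, ranged from 12947418 to 67369392 in hepatopancreas and from 6001494 to 18661368 in muscle of P. virginalis, and from 9109577 to 11942816 in muscle of P. fallax. The deepest library was the hepatopancreas of animal 2. The credible intervals that the authors' software gave for TPM had a median half-width of 0.560% of the level in animal 2, 1.06% in animal 6 and 1.54% in animal 7 over the 85 genes, which covers the assignment of fragments and no difference between animals. The widest half-widths over the 85 genes were 27.3%, 45.4% and 60.2%, found in a pair of genes with identical values, ranks 51 and 52. Animal 7 and the P. fallax animals were sequenced with longer reads than animals 2 and 6. One library stood apart: the muscle of P. fallax animal 3 was the highest of the 6 muscle libraries for 59 of the 85 genes (69.4%), against 13.4% of the 12387 genes with a single highest muscle library. Counts of calls and of genes above the P. fallax libraries are therefore given with and without this library.

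The 85 genes took up more than all other genes together in every hepatopancreas library. Their summed share of TPM was 58.9% in animal 2, 54.4% in animal 6 and 52.9% in animal 7 (55.4% ± 3.14, SD, n = 3). Of the expected counts, which are not divided by length, they held 60.2%, 65.1% and 68.1% (64.5% ± 3.99, SD, n = 3), so the order of the animals was opposite on the 2 scales. In muscle the same genes summed to 0.804%, 0.896% and 0.830% of TPM in P. virginalis animals 2, 6 and 7, against 0.780%, 1.58% and 1.51% in P. fallax animals 1, 3 and 4. A set of 57 genes that reached 1000 TPM in both tissues of P. virginalis took a further 20.8%, 26.6% and 27.7% of hepatopancreas TPM. The muscle was more concentrated: 42 genes with at least 1000 TPM in muscle alone held 0.352%, 0.481% and 0.429% of TPM in hepatopancreas and 81.0%, 79.2% and 78.5% in muscle of P. virginalis.

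**Figure D1:**
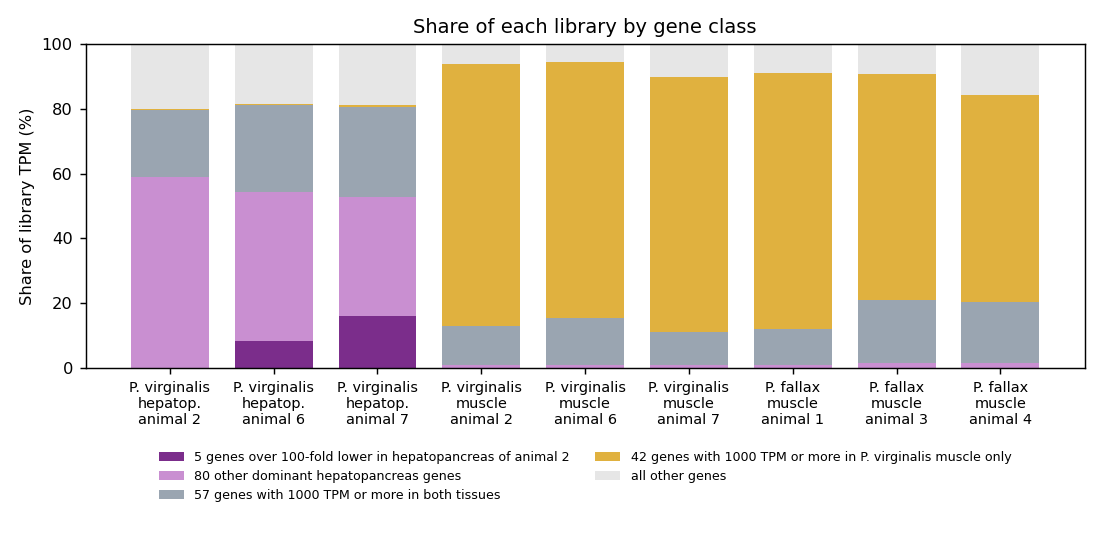
Stacked bars give the share of library TPM (%) for 5 gene classes in each of the 9 libraries, hepatopancreas first, then muscle of P. virginalis, then muscle of P. fallax. The 2 purple classes together are the 85 dominant hepatopancreas genes, 58.9%, 54.4% and 52.9% of hepatopancreas and at most 1.58% of any muscle library, and the dark class of 5 genes reaches 8.45% in animal 6 and 16.1% in animal 7 but 0.0107% in animal 2.

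Within the 85 genes the level fell steeply with rank. Mean hepatopancreas TPM ranged from 1016 to 61742, with a median of 2254. The most abundant gene held 6.17% of hepatopancreas TPM on average, the first 3 held 16.1%, the first 10 held 31.7% and the first 20 held 41.2%, which was 74.3% of what all 85 held. Rank 1, evm-scaffold16910-processed-gene-0.0, a model of 778 nt, stood at 32451, 78176 and 74599 TPM in the hepatopancreas of animals 2, 6 and 7. Its muscle levels were 4.18, 5.55 and 0.72 TPM in the same animals. Rank 2, maker-scaffold6937-snap-gene-0.13, a model of 747 nt, stood at 72388, 41507 and 37081 TPM in hepatopancreas and at 1.93, 3.03 and 0.00 TPM in muscle of these animals. The 2 leading genes therefore ran in opposite directions between animals: rank 1 was lowest in animal 2 and rank 2 was highest there, and in neither gene did the tissues overlap.

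**Figure D2:**
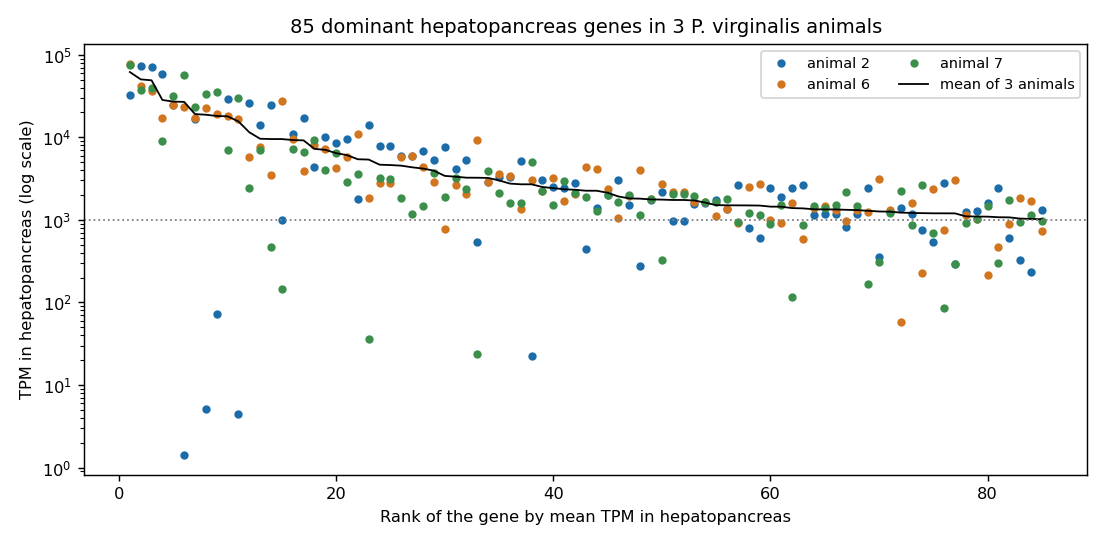
Each point is the TPM (log scale) of a gene in the hepatopancreas of 1 animal, the 85 genes are ordered by mean TPM, the line is the mean of 3 animals and the dotted line the 1000 TPM of the rule. On this log scale most points lie close to the line, though the median ratio of the highest to the lowest animal is 2.84. A number of genes fall far below the line in 1 animal, among them ranks 6, 8, 9 and 11 in animal 2.

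The threshold fell within a continuous range of levels. The last gene inside, snap-scaffold297469-processed-gene-0.9 (rank 85), had 1327, 740.4 and 980.5 TPM in animals 2, 6 and 7, a mean of 1016. The first gene outside, maker-scaffold33974-snap-gene-0.1, had 1728, 482.4 and 764.2 TPM, a mean of 991.5. The 2 genes overlapped in level across animals. Because the rule used the mean, 47 of the 85 genes reached 1000 TPM in all 3 animals, 23 in 2 animals and 15 in 1 animal alone.

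The gene models of the dominant transcripts were neither unusually short nor unusually long. Their median length was 798 nt (189 to 10374 nt), against 546 nt over all models, 684 nt over the 16387 models with any hepatopancreas TPM and 903 nt over the 383 models with 100 to 1000 TPM there. The 57 genes abundant in both tissues were shorter, with a median of 556 nt, and the 42 muscle genes had a median of 995.5 nt. Only 1 of the 85 models was shorter than 300 nt, the gene of rank 61 with 189 nt, and 4 were longer than 3000 nt. This short model had 5682, 468.0 and 463.0 counts in hepatopancreas of animals 2, 6 and 7, and 0 counts in each muscle library of P. virginalis. The share of lengths that are multiples of 3 was 57.6% (49 genes), against 69.7% of all models, 52.7% of those with 100 to 1000 TPM, 50.9% of those abundant in both tissues and 54.8% of the muscle genes. The identifiers record how each model was made: 54 of the 85 (63.5%) came from the maker-snap route, which combines a gene predictor with evidence, against 26.0% of all models and 43.9% of the models with 100 to 1000 TPM.

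The order of the genes was different when fragments were counted and not divided by length. The gene of rank 11, snap-scaffold88737-processed-gene-0.19, a model of 7707 nt, took 14.0% of all expected counts in animal 6 and 22.1% in animal 7, the largest mean share of counts of any of the 85 genes, but 0.00429% in animal 2. Rank 1 averaged 4.04% of counts and was number 3 on this scale. The longest model, rank 82 with 10374 nt, held 1.73% of the counts of animal 7.

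**Figure D3:**
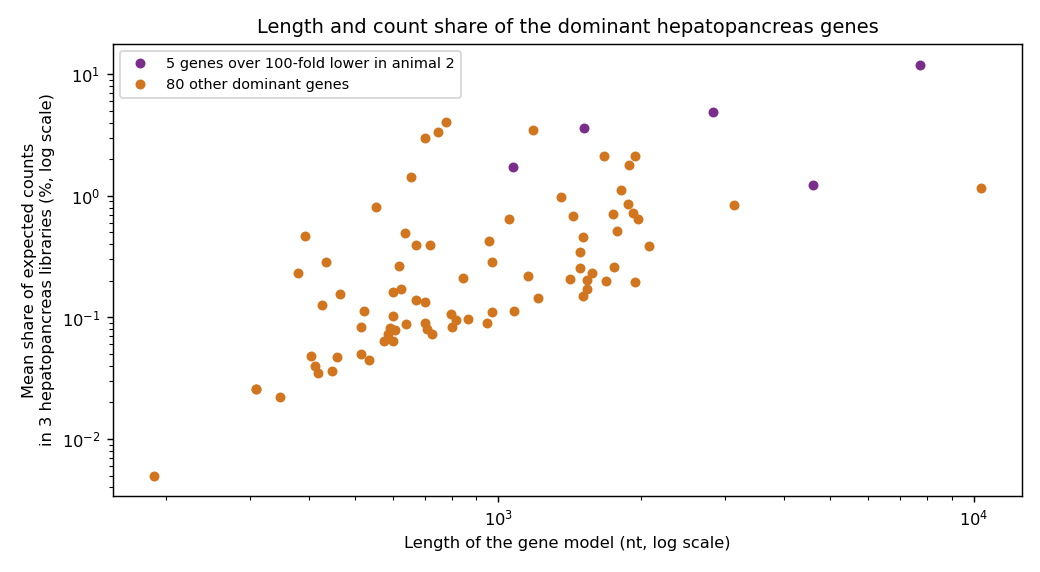
Points are the 85 genes by length of the gene model (nt, log scale) and mean share of expected counts over 3 hepatopancreas libraries (%, log scale). The 5 genes that were over 100-fold lower in animal 2, in purple, are between 1074 and 7707 nt long, and the gene of 7707 nt holds the largest mean share, 12.0%.

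Clonal animals differed widely in these genes. The coefficient of variation (CV, the SD over 3 animals as a percentage of the mean) had a median of 55.9% over the 85 genes, with a range of 1.76% to 163%. It was 37.2% over the 383 genes with 100 to 1000 TPM and 11.0% over the 57 genes abundant in both tissues, and 74.0% over all 16387 genes with any hepatopancreas TPM, whose median level was 0.73 TPM. With 3 values a CV cannot exceed 173%, and with 2 values its ceiling is lower. The median ratio of the highest to the lowest animal was 2.84, and 29 genes stayed within 2-fold. At least 10-fold separated the animals in 19 of the 85 genes (22.4%), against 7.31% of the 7469 genes with a mean of at least 1 TPM and 4.96% of those with 100 to 1000 TPM. At least 100-fold separated them in 8 genes (9.41%), against 3.90% and 1.31%. These counts rest on the extremes of 3 animals: with 2 animals at a time, 8 genes differed at least 10-fold without animal 2, 12 without animal 6 and 11 without animal 7, and the median CV was 34.9%, 47.9% and 46.6%. The rule set no upper limit in hepatopancreas, so a gene could enter the 85 through 1 very high animal. Such an animal could also carry a gene out of the class with 100 to 1000 TPM. The choice itself thus favours wide differences between animals among the 85, and the comparison with other classes is a description. With 1 hepatopancreas library per animal, differences between animals cannot be separated from differences between dissections or library preparations, and no test was made of them. In bulk tissue, fewer cells of a type and less RNA per cell cannot be told apart.

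The 19 genes followed 5 of the 6 possible orders of the animals. For 6 genes (ranks 12, 14, 23, 62, 69 and 76) animal 2 was highest and animal 7 lowest. Rank 14 had 24573, 3521 and 471.0 TPM in animals 2, 6 and 7, and rank 23 had 14233, 1849 and 35.9 TPM. For 6 other genes animal 6 was highest, with animal 7 lowest in ranks 15, 33 and 70 and animal 2 lowest in ranks 43, 48 and 77. For ranks 72 and 74 animal 7 was highest and animal 6 lowest. The remaining 5 genes were highest in animal 7 and lowest in animal 2. No animal was therefore low or high throughout. Over all 85 genes animal 2 was highest for 38 (44.7%), animal 6 for 25 (29.4%) and animal 7 for 22 (25.9%). These shares were 49.0%, 15.7% and 35.3% of the genes with a mean of at least 1 TPM. They were 36.3%, 32.9% and 30.8% of those with 100 to 1000 TPM, so animal 2 led in these classes too.

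The 5 genes of the last order carried a large part of the libraries of animals 6 and 7 and almost nothing of that of animal 2. They were grouped by this order after their values were seen, so the order they share is a description. Rank 6, maker-scaffold68984-exonerate_est2genome-gene-0.2 (1516 nt), had 1.41, 23161 and 57385 TPM in animals 2, 6 and 7. Rank 8, maker-scaffold326573-snap-gene-0.0 (1074 nt), had 5.05, 22531 and 33747 TPM. In both, animal 7 was above animal 6 and animal 2 was far below both. Rank 9, maker-scaffold23923-snap-gene-0.29 (2835 nt), had 72.9, 18956 and 35307 TPM. Rank 11 had 4.45, 16806 and 29887 TPM. Rank 38, maker-scaffold37323-snap-gene-0.5 (4592 nt), had 22.7, 3033 and 5027 TPM. The ratio of the highest to the lowest animal ran from 222 to 40699.

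Together the 5 genes held 0.0107%, 8.45% and 16.1% of TPM in animals 2, 6 and 7, and 0.0429%, 26.7% and 43.9% of expected counts. The other 80 genes held 58.9%, 46.0% and 36.8% of TPM and 60.1%, 38.4% and 24.2% of counts in animals 2, 6 and 7, so without the 5 genes the count share of the dominant genes had the same order of animals as the TPM share, with animal 2 highest. The 5 genes sit on different scaffolds. The hepatopancreas library of animal 2 was the deepest of the series and gave them 164 to 16770 counts each. In muscle the 5 genes summed to 0.45, 6.45 and 1.75 TPM in P. virginalis animals 2, 6 and 7, against 1.01, 1.34 and 0.77 TPM in P. fallax animals 1, 3 and 4. Rank 6 had 1.41 TPM in the hepatopancreas of animal 2, below the 1.79 TPM in the muscle of animal 6.

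**Figure D4:**
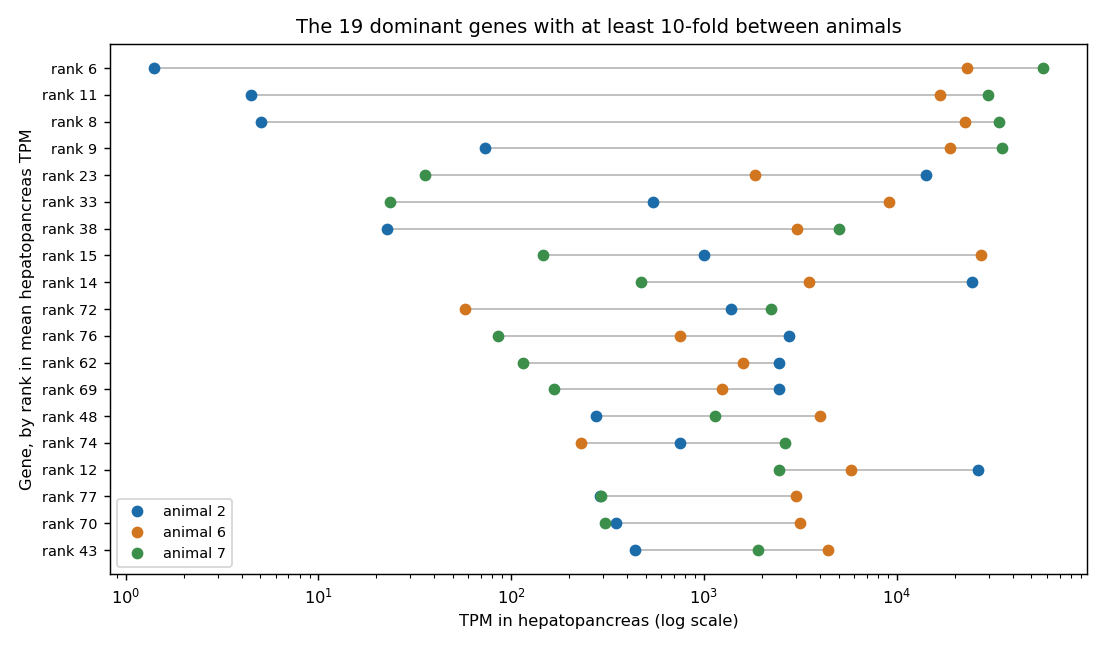
Each row is 1 of the 19 genes with at least 10-fold between animals, and points give TPM (log scale) in the hepatopancreas of animals 2, 6 and 7, joined by a line. Ranks 6, 8, 9, 11 and 38 have animal 2 far to the left, and ranks 14, 23 and 76 have animal 7 to the left and animal 2 to the right.

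The highest CVs belonged to 2 genes of the same scaffold. Rank 15, maker-scaffold158-snap-gene-1.1 (1881 nt), had 998.7, 27402 and 146.2 TPM in animals 2, 6 and 7, a CV of 163%. Rank 33, maker-scaffold158-snap-gene-0.11 (969 nt), had 542.4, 9147 and 23.6 TPM, a CV of 158%. Animal 6 was far above the other animals in both, animal 7 was lowest in both, and the order was the same. In muscle of P. virginalis the gene of rank 15 had 0.00, 1.75 and 0.00 TPM and that of rank 33 had 0.00, 0.78 and 0.00 TPM in animals 2, 6 and 7, so animal 6 was again the animal with a signal. These 2 genes and the 5 above were the only ones of the 85 whose highest muscle library was that of P. virginalis animal 6.

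The lowest CVs came from genes that differed in muscle. Rank 54, maker-scaffold22342-snap-gene-0.65 (606 nt), had 1585, 1624 and 1640 TPM in hepatopancreas of animals 2, 6 and 7 (CV 1.76%) and 1012, 1185 and 772.1 TPM in their muscle. Rank 49, maker-scaffold44872-snap-gene-0.0 (591 nt), had 1723, 1773 and 1805 TPM in hepatopancreas (CV 2.32%) and 0.51, 0.00 and 0.00 TPM in muscle. Even levels between animals were thus found both in a gene abundant in muscle and in a gene close to 0 there. The gene of rank 54 had the highest muscle mean of the 85, 989.9 TPM, and the nearest gene kept out by the muscle threshold, maker-scaffold28267-snap-gene-0.1, had a muscle mean of 1035 TPM.

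The 85 genes lay on 75 scaffolds, and 9 scaffolds carried more than 1 of them (19 genes). All 21773 models lay on 12012 scaffolds. In 4 of these 9 scaffolds with more than 1 of the 85, all genes of the set had the same order of animals. Neither the sharing of scaffolds nor the agreement in order was compared with that of other genes, so both are a description. Ranks 4 and 12, both on scaffold13450, had 58554, 17268 and 9132 TPM and 26273, 5777 and 2462 TPM in animals 2, 6 and 7. Ranks 13, 31 and 37, all on scaffold2857, were each highest in animal 2. Ranks 3 and 5, both on scaffold69680, differed: rank 3 had 70774, 36802 and 39387 TPM, highest in animal 2, while rank 5 had 24919, 24342 and 31933 TPM, highest in animal 7. Ranks 51 and 52 had identical values in all 9 libraries, with 972.9, 2198 and 2051 TPM in hepatopancreas of animals 2, 6 and 7, levels with the wide intervals given above. Both are 309 nt long and lie on different scaffolds, and the counting can divide the reads of near-identical copies between them, so they are uncertain as separate genes and count as 2 in every number given here. Counts that were not whole, as arise where reads are divided between similar models, were found for 36.5%, 37.6% and 32.9% of the 85 genes in animals 2, 6 and 7, against 42.0%, 28.3% and 25.0% of all genes with a count (tolerance 0.001). The share was thus below that of all genes in animal 2 and above it in animals 6 and 7.

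In the muscle of P. virginalis the 85 genes fell into a large group close to 0 and a small group with substantial levels. A mean below 10 TPM was found for 65 genes, 10 to 100 TPM for 4 genes and at least 100 TPM for 16 genes. The 65 genes summed to 554342, 509305 and 492793 TPM in hepatopancreas of animals 2, 6 and 7, and to 47.1, 48.4 and 35.6 TPM in their muscle. Their median level was 3005 TPM in hepatopancreas and 0.347 TPM in muscle of P. virginalis. At 0 TPM in muscle stood 9, 6 and 37 of the 65 genes in animals 2, 6 and 7, and animal 7 had the shallowest muscle library of the series. Over the 3 muscle libraries together 3 genes (ranks 50, 61 and 76) had less than 1 count. Rank 76 had an expected count of 0.93 there, and no fold is given for it. Ranks 50 and 61 had 0 counts: with 3 counts over the group as the limit that this allows, they were at least 7175-fold and 830-fold higher in hepatopancreas by counts pooled over animals as shares of the libraries, a limit that covers counting error only. All 85 genes were tested in edgeR between the tissues of P. virginalis: 70 were higher in hepatopancreas at an adjusted p under 0.05 and none lower, against 24.5% of 6770 genes called higher, and since this contrast chose the genes nothing is read from the count. Hepatopancreas of every animal was above every P. virginalis muscle library in 82 of the 85 genes (34.5% of all genes with any signal) and above every P. fallax muscle library in 76 (27%). Without P. fallax animal 3, hepatopancreas of every animal was above both remaining P. fallax libraries in 78 genes (28.8% of all genes with any signal).

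The 16 genes with at least 100 TPM in muscle were more even between animals in hepatopancreas, with a median CV of 26.1%, against 60.7% over the 65 genes close to 0 in muscle. They ranked low, between 18 and 81, and had a median length of 603.5 nt, against 864 nt for the 65 genes. Their median level was 1419 TPM in hepatopancreas and 487.4 TPM in muscle of P. virginalis, and 736.0 TPM in muscle of P. fallax. The gene of rank 18 was the most abundant, with 4360, 8142 and 9230 TPM in hepatopancreas and 42.6, 242.7 and 129.8 TPM in muscle of animals 2, 6 and 7, a clear separation. The gene of rank 72 was the only one of the 85 that was lower in hepatopancreas than in muscle of the same animal: it had 1390, 57.7 and 2224 TPM in hepatopancreas and 28.2, 96.6 and 347.8 TPM in muscle of animals 2, 6 and 7, and the exception was animal 6. Its level in P. fallax muscle was 82.5, 1364 and 780.8 TPM in animals 1, 3 and 4, so its spread within a tissue was wide in all 3 groups. Between tissues, 9 of the 85 genes had a log2 fold change below 0 with TMM factors and none with library sizes alone, and the median of all genes tested moved from 0.17 to 1.48 with this choice, so the direction of these 9 depends on the scaling.

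The 65 genes close to 0 in P. virginalis muscle were low in P. fallax muscle too, apart from animal 3. Their summed level was 202.4, 1617 and 65.9 TPM in P. fallax animals 1, 3 and 4, and in animal 1 the gene of rank 74 alone accounted for 176.5 TPM. Animal 3 was the highest of the 6 muscle libraries for 53 of the 65 genes (81.5%), against 13.8% of all genes below 10 TPM in P. virginalis muscle and 57.4% of the 176 of these with 100 to 1000 TPM in hepatopancreas. For 37 of the 65 it was at least 10 times the next highest muscle library, against 3.58% of the genes below 10 TPM. This was not counted over the 176 genes with 100 to 1000 TPM in hepatopancreas, which are nearer in level. The gene of rank 1 had 356.8 TPM in P. fallax animal 3, against 2.59 and 6.86 TPM in animals 1 and 4, and the gene of rank 2 had 79.5 TPM, against 0.25 and 1.91 TPM. The elevation in this animal was thus wide, and it also reached less abundant hepatopancreas genes.

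Set against the mean hepatopancreas level of P. virginalis, the 65 genes stood in P. fallax animal 3 at a median of 0.234% (quartiles 0.0733% and 0.577%, highest 2.49%). In the other muscle libraries this median was 0.00824%, 0.00716% and 0 in P. virginalis animals 2, 6 and 7, and 0.000742% and 0.00263% in P. fallax animals 1 and 4. The 5 genes that were low in the hepatopancreas of P. virginalis animal 2 did not take part: they stood at 0.06 to 0.43 TPM in P. fallax animal 3. The 2 genes of scaffold158 were at 0 TPM there. Across the 65 genes the levels in P. fallax animal 3 ranked most like those in the hepatopancreas of P. virginalis animal 2 (Spearman's rho 0.589), and less like those of animals 6 (0.194) and 7 (0.340). Without the 5 genes these values were 0.489, 0.392 and 0.594, so the likeness to animal 2 rested on them. Muscle of P. virginalis animal 6 ranked most like hepatopancreas of the same animal, with a rho of 0.568 against 0.0636 for animal 2 and 0.412 for animal 7. Without the 5 genes these values were 0.523, 0.198 and 0.343. Muscle of animal 2 had a rho of 0.488 with hepatopancreas of animal 2, 0.209 with that of animal 6 and 0.398 with that of animal 7, but 0.429, 0.318 and 0.569 without the 5 genes, so there the likeness to the same animal was lost. Muscle of animal 7 showed little likeness to any hepatopancreas library, with -0.216 for animal 2, -0.0616 for animal 6 and 0.153 for its own animal, which was 0.0953 without the 5 genes. These correlations are across 65 genes that share libraries and are not independent, of which 27 to 63 had a count in a given muscle library, and are given as a description. The source of the hepatopancreas transcripts in muscle libraries was not tested.

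**Figure D5:**
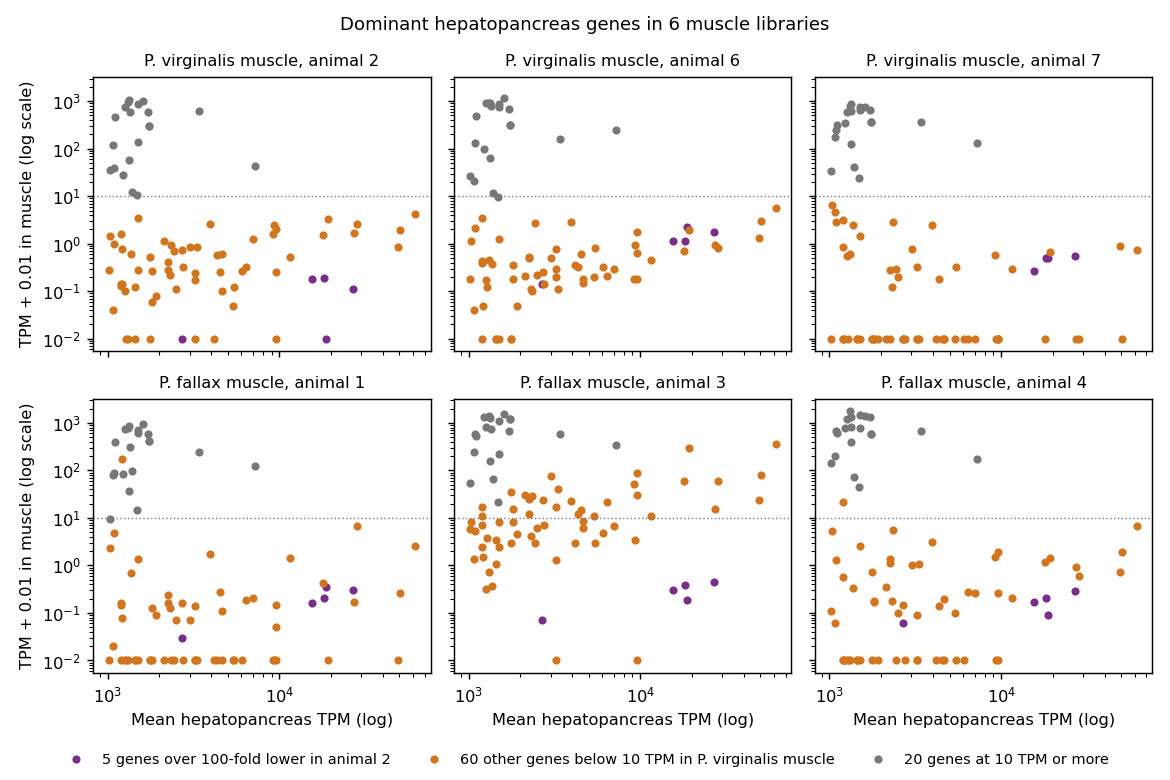
Each panel is 1 muscle library, the upper row P. virginalis animals 2, 6 and 7 and the lower row P. fallax animals 1, 3 and 4, with mean hepatopancreas TPM on the horizontal axis (log scale) and TPM + 0.01 in that muscle library on the vertical axis (log scale), so that points at 0.01 are at 0. Most of the 60 other genes below 10 TPM in P. virginalis muscle lie higher in P. fallax animal 3 than in the other panels, and the 5 purple genes do not.

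Between the muscle of P. virginalis and that of P. fallax none of the 85 genes was called by edgeR's quasi-likelihood test. Only 33 of them passed the filter on low counts, 52 were not tested, and 0 of the 33 were called at an adjusted p under 0.05, against 63 of 5053 genes (1.25%). At an unadjusted p under 0.05 stood 8 of the 33, 2 higher and 6 lower in P. virginalis, against 7.5% of all genes. Without P. fallax animal 3 these were 5 of the 33 genes then tested, 3 higher and 2 lower, against 6.63% of all genes. The count depended on the fit: when TMM factors were left out and library sizes used as they were, 5 genes were called (ranks 1, 2, 4, 35 and 74), all lower in P. virginalis, against 1.42% of all genes. The same fit without P. fallax animal 3 called 1 of them (rank 74), against 0.607%. With no filter on low counts 39 of 85 were called, 4 higher and 35 lower in P. virginalis, against 1.25% and 1.23% of all genes. Without P. fallax animal 3 this fit called 9, of which 8 were higher and 1 was lower (rank 74), against 1.2% and 0.474% of all genes. Both the number and the balance of directions thus changed when that library was left out. Calls over all genes also fell, from 307 to 201, and this fit was not run without any other animal. Library sizes alone moved the median log2 fold change of all genes tested to -0.59. With TMM factors the median log2 fold change of P. virginalis over P. fallax was -0.36 over the 33 genes and -0.01 over all genes tested, and without P. fallax animal 3 that of the genes then tested was 0.59, so the direction of the median turned on this animal. These medians and the directions above are a description, since a gene could pass the filter through the group where it was high. The rule also capped only the muscle of P. virginalis. Of the 85 genes, 9 reached 1000 TPM in some P. fallax muscle library and 2 in some P. virginalis muscle library. In rank 1 the sign turned likewise: the log2 fold change was -4.29 (adjusted p = 0.541) with all 6 libraries and 0.99 (adjusted p = 0.995) without P. fallax animal 3. For the gene of rank 2 the values were -3.08 (adjusted p = 0.767) and 2.17 (adjusted p = 0.958).

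The smallest adjusted p among the 33 genes was that of rank 74, evm-scaffold237257-processed-gene-0.1 (1541 nt), a gene singled out after its values were seen. It had 0.76, 3.54 and 3.14 TPM in muscle of P. virginalis animals 2, 6 and 7, against 176.5, 17.1 and 21.6 TPM in muscle of P. fallax animals 1, 3 and 4, and the groups did not overlap. Its log2 fold change was -4.27 (adjusted p = 0.208), and without P. fallax animal 3 it was -4.73 (adjusted p = 0.134). It passed the threshold with DESeq2, with limma on log2(TPM + 1) and log2(TPM + 0.1) and with library sizes alone, in each case lower in P. virginalis, and did so in each of these fits without P. fallax animal 3. Without that library DESeq2 also called rank 40, higher in P. virginalis. Rank 40 was close to 0 in muscle, with 0.70, 2.71 and 0.29 TPM in P. virginalis animals 2, 6 and 7. It had 0.00, 2.99 and 0.00 TPM in P. fallax animals 1, 3 and 4. The library left out was thus its highest muscle library, and no difference between species is read from this call. In the hepatopancreas of P. virginalis the gene of rank 74 had 755.2, 230.3 and 2631 TPM in animals 2, 6 and 7. Read length differed between animals within P. virginalis and not within P. fallax, and its part in the comparison was not tested. A test that misses the threshold with 3 libraries per group does not show that the levels were equal.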

How the data were processed

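The 9 RNA-seq libraries were grouped by tissue and species from the sample labels, as 3 hepatopancreas and 3 muscle libraries of P. virginalis and 3 muscle libraries of P. fallax. Per the labels, libraries were made with the TruSeq RNA v2 protocol from DNase-treated total RNA. The submitters' processing notes name HISAT2 2.0.4 and RSEM 1.2.30 without their roles, and the study's methods give RSEM as the source of TPM. How reads were trimmed, whether strand was used in counting and which gene annotation release was taken is not given in the sources used here. Deposited expected counts are fragments assigned to each gene by the authors' RSEM run, without normalization. The TPM values, the FPKM values and the posterior mean TPM with its interval bounds were likewise deposited by the authors as RSEM wrote them.

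The genes, lists and comparisons were chosen with earlier results of these data known. The authors' TPM values were used for levels, shares and the coefficient of variation, the measure of spread that the study computed. Species and tissues were compared on expected counts rounded to whole numbers in edgeR 4.0.16 (R 4.3.3) by its quasi-likelihood test, with TMM factors, the filterByExpr filter, Benjamini-Hochberg adjustment over all genes tested and a threshold of 0.05, fitting the 2 groups concerned and no other libraries. Alternatives used DESeq2 1.42.0, limma 3.58.1 on log2-transformed TPM with a pseudocount of 1 or 0.1 (genes averaging 1 TPM or more), RLE factors, library sizes alone, no filter, all 9 libraries in one model and each animal left out. Other steps used Python 3.11.15 with pandas 2.3.3, NumPy 2.4.6 and SciPy 1.17.1.

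Identifiers are printed for the 2 genes with the highest mean and for the 2 with the highest and the 2 with the lowest coefficient of variation. They are also printed for those on either side of a threshold. Genes called between species in some fit are given by rank, unless their identifier is printed for another reason. Other identifiers were chosen after their values were seen, and all other genes are given by rank. Both tissues come from the same P. virginalis animals in the labels, which pairs them. Deviations of log2 normalised counts from the group mean correlated with r = -0.0736, 0.257 and -0.0702 between the tissues of animals 2, 6 and 7, and from -0.238 to 0.226 between tissues of different animals.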

Additional observations from a re-analysis of the deposited data

How the results depend on the processing

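The number of genes that met the rule was 129 at 500 TPM, 77 of them among the 85, and 47 where every animal had to reach 1000 TPM. At 2000 TPM it was 69, of which 45 were among the 85. It was between 71 and 90 with the median over animals, posterior mean TPM or FPKM, with 69 to 85 of the 85 kept, and between 77 and 83 with 1 animal left out. The 85 genes held 64.5% of expected counts in place of 55.4% of TPM. The median coefficient of variation was 55.9% over 3 animals and between 34.9% and 47.9% with 2 animals at a time, where its ceiling is lower. The median ratio of the highest to the lowest animal was 2.84. The count of 19 genes with at least 10-fold between animals became 8 to 12 with 2 animals at a time, an alternative chosen after seeing the data. The median summed share in muscle of 0.863% became 0.00572% for the 65 genes close to 0 in P. virginalis muscle, also chosen after seeing the data. Between species, 0 genes were called by edgeR, with RLE factors, with all 9 libraries in one model and with any 1 animal left out. DESeq2 called 1 of 61 genes given a p, against 122 of 12298 genes. With either pseudocount limma called 1 of 63, against 57 of 5067 genes (pseudocount 1) and 63 (pseudocount 0.1). Library sizes alone called 5 of 33 and edgeR without a filter 39 of 85, against 72 of 5053 and 307 of 12353 genes. The following fits left out P. fallax animal 3, chosen after seeing the data. DESeq2 called 2 of 83 genes given a p, against 109 of 12026 genes. With either pseudocount limma called 1 of 30, against 34 of 5061 genes (pseudocount 1) and 47 (pseudocount 0.1). Library sizes alone called 1 of 33 and edgeR without a filter 9 of 83, against 33 of 5441 and 201 of 12028 genes. The cause of these differences was not tested. Between tissues the fit with the animal as a replicate block called the same number, 70 of 85, all higher in hepatopancreas. Over all genes it called 1527 of 6770 higher, and since this contrast chose the genes nothing is read from the count.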
